A study of Homo sapiens with 16 samples.

Results

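The replicative DNA polymerases, primase and PCNA copy the nuclear genome in S phase. The set described here holds 10 genes of the 33937 rows in the count matrix, chosen by name and matched through their Ensembl identifiers: POLA1 and POLA2, PRIM1 and PRIM2, POLD1, POLD2 and POLD3, POLE and POLE2, and PCNA. Their RNA was measured in HCT116, a human colorectal cancer cell line, as read counts per gene in 16 libraries. The cells were stable lines carrying a doxycycline (dox) inducible construct, either a scrambled control (SCR) or a knockdown construct against NAA40 (NAA40-KD), the N-terminal acetyltransferase of histones H4 and H2A. Each line was grown without dox or with 1 µg/ml dox for 96 h, which gave 4 groups of 4 libraries, written as the name of the line followed by (-dox) or (+dox). All groups share the HCT116 background, the same medium and a stably integrated construct, and the study names 1 NAA40-KD construct, NAA40-KD2, for the RNA-seq, so each line stands for a single engineered line.

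Every round of DNA synthesis begins with primase and polymerase alpha, which travel as 1 complex. PRIM1 is the catalytic and PRIM2 the regulatory subunit of primase, which lays down a short RNA primer, and POLA1 extends this primer with DNA while POLA2 is its accessory subunit. Polymerase epsilon, with POLE as its catalytic subunit, then copies the leading strand, and polymerase delta, with POLD1 as its catalytic subunit, copies the lagging strand. PCNA is the ring that encircles DNA and holds these polymerases to the template. Transcription of many such genes is known to rise as cells enter S phase under the E2F family of factors, which bind a short site near the transcription start.

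The libraries held between 11065606 and 13855486 counts. NAA40, the targeted gene, went against the labels in these libraries. The methods state that its knockdown was checked by qRT-PCR on such RNA, a measurement not analysed here. Its level as CPM (read counts scaled to a common library size after TMM normalization) was 34.4, 25.9, 29.01 and 28.2 in SCR (-dox), 26.0, 28.3, 26.2 and 28.8 in SCR (+dox), 12.6, 11.5, 9.25 and 13.8 in those labelled NAA40-KD (-dox), and 31.4, 29.2, 28.6 and 31.8 in NAA40-KD (+dox). NAA40 RNA was thus low in the group labelled as knockdown line without dox, at 40.2% of SCR (-dox) (exact permutation test, two-sided, p = 0.0286, the lowest value possible for 4 libraries on each side), and at 110.8% of SCR (+dox) in the group labelled as treated (exact p = 0.0571). In the count matrix, the columns matched to NAA40-KD (-dox) are headed KD-wDox and those matched to NAA40-KD (+dox) KD-Dox. The SCR columns are headed CTRL-wDox and CTRL-Dox in the same way. The w can be read as with or as without, and its meaning is not given in the sources used here. The names of the groups below are those of the labels, and each direction given between dox labels or for the NAA40-KD line rests on them. The library labelled NAA40-KD (-dox) replicate 4 stood apart: its median correlation with its own group was 0.924, against 0.985 to 0.993 for the other libraries, and its deviation from the SCR (-dox) mean climbed with the GC content of genes by 0.831 log2 units per 10 percentage points, against -0.107 to 0.177 in the others. The calls of the members and the counts by gene list that rest on it are given with and without it. The 7 epithelial markers were present in every library, summed to 4340 to 5477 CPM in SCR (-dox), 4936 to 6058 in SCR (+dox), 5943 to 12410 in NAA40-KD (-dox) and 4654 to 4946 in NAA40-KD (+dox). Of 10 markers of leukocytes, endothelium, fibroblasts and hepatocytes, COL1A1 reached 56.6 to 195 CPM and VWF 0.497 to 2.79 CPM, and the other 8 were at or below 0.3725 CPM in every library. These 10 markers summed to 58.3 to 94.2 CPM in SCR (-dox), 70.3 to 95.2 in SCR (+dox), 68.0 to 198 in NAA40-KD (-dox) and 67.9 to 78.3 in NAA40-KD (+dox).

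Since the members are known as targets of common cell cycle factors, the sequence before their start sites was read from RefSeq (GRCh38.p14), in windows of 250 bases before the start and 50 from the start on, with 9 of 10 members matched. POLD3 was not matched. The windows were searched on both strands for E2F sites (TTTCCCGC, TTTCGCGC, TTTGCCGC or TTTGGCGC), the CCAAT box (CCAAT), the cell cycle homology region (TTTGAA) and the GC box (GGGCGG). The E2F letters stood in 5 of 9 members, POLA1, POLA2, POLE, POLE2 and PCNA, and in 3.31% of all 35116 windows. The CCAAT box stood in POLA1, PRIM1, POLD2, POLE and PCNA, also 5 of 9, against 34.6% of all windows, and the GC box in 6 of 9 against 45% of all windows, whereas TTTGAA stood in 0 of 9 against 15.2%. The windows of POLA1, POLA2, POLE2 and PCNA are shown as members with an E2F match whose levels differed in size of response, and that of POLD2 as a member without one and with the smallest difference in the libraries labelled NAA40-KD (-dox). Members without a match were not all small in response. The log2 differences from SCR (-dox) were -0.996 for PRIM1, -0.863 for PRIM2, -0.303 for POLD1 and -0.102 for POLD2. With a match they were -1.47 for POLA1, -1.39 for POLA2, -1.29 for POLE2, -0.555 for POLE and -0.512 for PCNA. These values include NAA40-KD (-dox) replicate 4. Without it, those of PRIM1, PRIM2, POLD1 and POLD2 were -0.80, -0.648, -0.825 and -0.352. Those of POLA1, POLA2, POLE2, POLE and PCNA were then -1.27, -1.45, -1.04, -0.827 and -0.493. A link between match and difference was not tested. Capitals mark the E2F matches and CCAAT boxes, and each window runs 5′ to 3′ along the strand of its gene.
POLA1 (chrX:24693668-24693967, + strand): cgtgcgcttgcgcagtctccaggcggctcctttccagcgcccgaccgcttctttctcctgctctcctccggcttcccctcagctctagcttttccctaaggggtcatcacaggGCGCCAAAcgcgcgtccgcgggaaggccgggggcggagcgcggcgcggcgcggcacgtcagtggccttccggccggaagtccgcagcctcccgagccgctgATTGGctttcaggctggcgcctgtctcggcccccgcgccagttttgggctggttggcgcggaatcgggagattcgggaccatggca
POLA2 (chr11:65261712-65262011, + strand): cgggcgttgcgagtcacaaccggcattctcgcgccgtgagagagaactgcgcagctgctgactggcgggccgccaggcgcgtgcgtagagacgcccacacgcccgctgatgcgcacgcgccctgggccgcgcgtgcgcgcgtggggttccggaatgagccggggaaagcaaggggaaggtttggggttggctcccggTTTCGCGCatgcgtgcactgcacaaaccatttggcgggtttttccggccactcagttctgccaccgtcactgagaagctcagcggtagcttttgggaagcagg
POLE2 (chr14:49688165-49688464, - strand): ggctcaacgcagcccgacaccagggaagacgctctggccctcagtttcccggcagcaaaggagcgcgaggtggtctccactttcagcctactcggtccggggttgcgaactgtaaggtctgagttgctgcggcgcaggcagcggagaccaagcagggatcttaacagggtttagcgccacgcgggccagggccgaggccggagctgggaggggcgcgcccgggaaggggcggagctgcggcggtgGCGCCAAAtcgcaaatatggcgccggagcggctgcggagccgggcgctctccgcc
PCNA (chr20:5126573-5126872, - strand): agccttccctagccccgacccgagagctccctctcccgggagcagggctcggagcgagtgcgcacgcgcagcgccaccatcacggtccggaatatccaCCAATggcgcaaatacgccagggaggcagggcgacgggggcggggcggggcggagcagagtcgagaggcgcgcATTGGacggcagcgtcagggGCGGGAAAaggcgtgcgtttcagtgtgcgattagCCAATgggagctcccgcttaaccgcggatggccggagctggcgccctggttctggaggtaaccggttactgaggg
POLD2 (chr7:44123499-44123798, - strand): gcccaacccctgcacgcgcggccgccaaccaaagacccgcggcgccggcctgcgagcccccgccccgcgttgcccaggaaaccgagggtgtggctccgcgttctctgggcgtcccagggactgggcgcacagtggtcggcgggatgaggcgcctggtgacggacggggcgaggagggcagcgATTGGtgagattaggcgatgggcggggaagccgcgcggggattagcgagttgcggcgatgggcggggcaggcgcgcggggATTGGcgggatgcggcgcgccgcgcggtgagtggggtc
Counted from the start site, the E2F match lay at -137 to -130 in POLA1, -53 to -46 in POLA2, -5 to 3 in POLE2 and -59 to -52 in PCNA, where it overlapped a GC box at -61 to -56. In POLE, which is not shown, it lay at -18 to -11, and the CCAAT boxes there overlapped each other. The RefSeq start differed from the GENCODE 29 gene start by 200 bases in POLA2, 208 in POLE2, 119 in POLD1 and 810 in POLD2. A match of letters is a description of the sequence and not a site of binding.

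Levels were compared between members per kilobase of annotated exon. In SCR (-dox), PCNA had the highest level, 119 ± 27.0 CPM per kb (SD, n = 4), followed by POLD2 at 39.3 ± 2.76. POLD1 at 11.7 ± 0.603, PRIM1 at 10.7 ± 1.76 and POLE at 9.90 ± 0.412 formed a middle group whose neighbours lay within their spread. PRIM2 at 6.89 ± 1.46, POLE2 at 6.08 ± 0.854, POLA1 at 5.28 ± 0.980 and POLD3 at 5.04 ± 0.336 likewise could not be ordered by more than their spread, and POLA2 was lowest at 3.61 ± 0.443. The order in the middle depends on the length used. Per kilobase of the longest coding transcript, POLE followed POLD2, at 21.0 ± 0.873 CPM per kb, ahead of PRIM1 at 18.6 ± 3.07, POLD1 at 16.4 ± 0.845, PRIM2 at 13.9 ± 2.96, POLE2 at 10.03 ± 1.41 and POLD3 at 7.27 ± 0.484. On that scale PCNA and POLD2 were still highest, at 129 ± 29.3 and 67.2 ± 4.72, and POLA1 at 6.10 ± 1.13 and POLA2 at 5.51 ± 0.678 lay within their spread of each other. The members held from 37 to 3056 counts in a library, and at least 168 in each of the 12 libraries other than NAA40-KD (-dox).

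**Figure D1:**
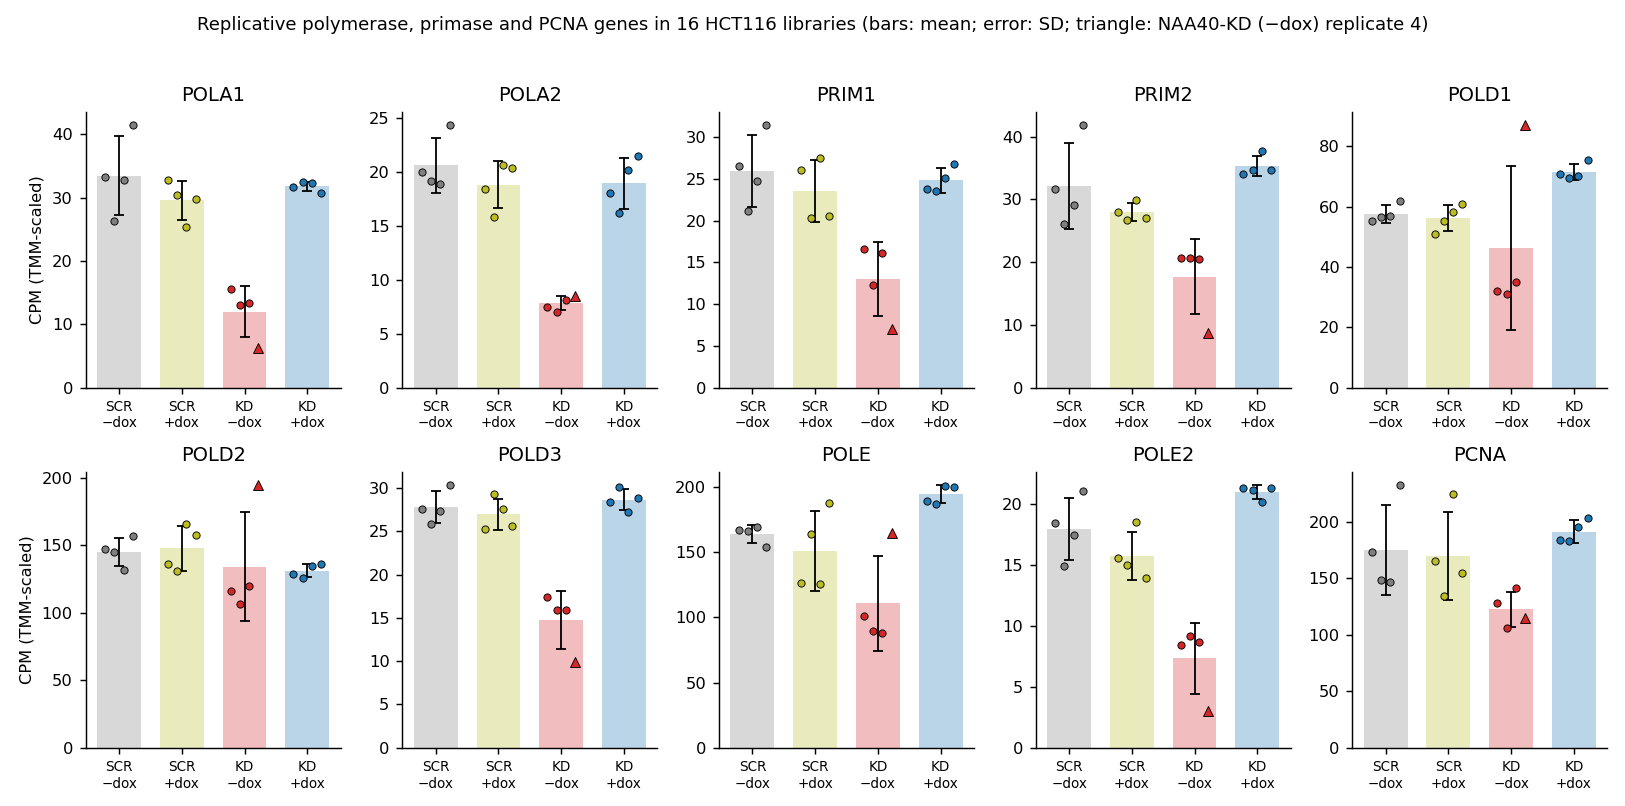
TMM-scaled CPM of each of the 10 members in the 4 groups (KD stands for NAA40-KD), with bars for the mean, error bars for the SD of 4 libraries, 1 point per library and a triangle for NAA40-KD (-dox) replicate 4. The points of NAA40-KD (-dox) lie below those of SCR (-dox) without overlap for 7 members, and the triangle lies above the other 3 libraries of its group for POLD1, POLD2, POLE and, by a small margin, POLA2.

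The first comparison asked how the NAA40-KD line differed from SCR in the libraries labelled (-dox), where NAA40 RNA was low in the NAA40-KD line. POLA1, POLA2, POLD3 and POLE2 fell in the libraries labelled NAA40-KD (-dox), by 2.78-fold, 2.63-fold, 1.88-fold and 2.44-fold. Thus 4 of 10 members passed at an adjusted p under 0.05 (edgeR quasi-likelihood test, Benjamini-Hochberg over all 13903 genes tested), 3.54% of all genes being called lower and 6.42% called in either direction, and 3 of these 4 also passed an absolute log2 difference of 1, as 3.47% of genes did. The log2 difference was below 0 for 10 of 10 members, and its median over the members was -0.89, against 0.04 over all genes tested. In 7 of 10 members the groups did not overlap, all but POLD1, POLD2 and POLE, whereas 11.8% of genes were lower without overlap. In bulk RNA, fewer cells of a type (here, cells in S phase) and less RNA per cell cannot be told apart.

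Polymerase alpha carried the largest differences. POLA1 (ENSG00000101868, chrX:24693919-24996986 in GRCh38) stood at 33.3, 26.3, 32.8 and 41.5 CPM in SCR (-dox) and at 15.5, 13.0, 13.3 and 6.25 CPM in the libraries labelled NAA40-KD (-dox). The highest of the latter lay well under the lowest of the former, and replicate 4 was the lowest. POLA1 had a log2 difference of -1.47 (SE 0.268, adjusted p = 0.0150). POLA2 (ENSG00000014138, chr11:65261762-65305589), the accessory subunit, varied least of the members within NAA40-KD (-dox), at 20.1, 19.2, 18.9 and 24.4 CPM against 7.52, 7.06, 8.15 and 8.55 CPM. Its 4 NAA40-KD (-dox) libraries lay close together, replicate 4 among them, and the groups did not overlap. The log2 difference was -1.39 (SE 0.162, adjusted p = 0.00312), and POLA2 was the member that passed with each of the 8 libraries left out in turn (adjusted p 1.61e-06 to 0.0178). POLA2 shares 2012 exonic bases with AP000944.2 on the same strand, a gene with no row in the matrix.

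Both primase subunits lay lower without passing. PRIM1 (ENSG00000198056, chr12:56731596-56752373) was at 26.5, 21.2, 24.7 and 31.5 CPM in SCR (-dox) and at 16.5, 12.3, 16.1 and 6.98 CPM in the libraries labelled NAA40-KD (-dox). Groups did not overlap, and replicate 4 was again lowest. This came to -0.996 on the log2 scale (SE 0.261, adjusted p = 0.0529). For PRIM2 (ENSG00000146143, chr6:57314805-57646849) the values were 31.6, 26.1, 29.1 and 41.9 CPM against 20.7, 20.7, 20.5 and 8.71 CPM. Replicates 1 to 3 of the libraries labelled NAA40-KD (-dox) were nearly equal and replicate 4 stood far below them. The log2 difference of PRIM2 was -0.86 (SE 0.278, adjusted p = 0.0966). PRIM1 overlaps exons of NACA (33 bases), AC117378.1 (362 bases) and, on the opposite strand, HSD17B6 (132 bases).

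Among the polymerase delta subunits, POLD3 (ENSG00000077514, chr11:74493851-74669117), which tethers the enzyme to PCNA, fell. It was at 27.6, 25.9, 27.3 and 30.3 CPM in SCR (-dox) and at 17.4, 15.9, 15.9 and 9.86 CPM in the libraries labelled NAA40-KD (-dox), with no overlap. Its log2 difference was -0.91 (SE 0.188, adjusted p = 0.0236). The catalytic subunit POLD1 (ENSG00000062822, chr19:50384204-50418016) was at 55.1, 56.6, 56.8 and 61.9 CPM against 32.0, 30.9, 35.0 and 87.0 CPM. Here replicates 1 to 3 lay below every SCR (-dox) library and replicate 4 above every one, so the groups overlapped. The log2 difference of -0.30 (SE 0.331, adjusted p = 0.624) did not pass. The accessory subunit POLD2 (ENSG00000106628, chr7:44114681-44124358) had 147, 145, 132 and 157 CPM against 116, 106, 120 and 194 CPM, the same arrangement. Its log2 difference was -0.10 (SE 0.210, adjusted p = 0.811). POLD1 shares 426 exonic bases with AC020909.1 and POLD3 123 with AP001372.2, and a pseudogene of POLD2, POLD2P1, has its own row in the matrix.

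Of polymerase epsilon, the smaller subunit fell and the catalytic one did not pass. POLE2 (ENSG00000100479, chr14:49643555-49688422), the accessory subunit, was at 18.4, 14.9, 17.5 and 21.0 CPM in SCR (-dox) and at 8.42, 9.19, 8.66 and 3.04 CPM in the libraries labelled NAA40-KD (-dox). The groups did not overlap, and replicate 4 lay far under the rest. Its log2 difference was -1.29 (SE 0.30, adjusted p = 0.0362). POLE (ENSG00000177084, chr12:132623753-132687365) was at 167, 166, 170 and 154 CPM against 101, 89.4, 88.2 and 165 CPM. Replicate 4 fell inside the SCR (-dox) range while the other 3 lay far below it. POLE differed by -0.56 on the log2 scale (SE 0.218, adjusted p = 0.161).

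For PCNA (ENSG00000132646, chr20:5114953-5126626) replicate 4 lay among the other libraries of its group. The clamp was at 173, 149, 147 and 232 CPM in SCR (-dox) and at 128, 106, 141 and 115 CPM in the libraries labelled NAA40-KD (-dox). The groups did not overlap, but the highest NAA40-KD (-dox) library came close to the lowest of SCR (-dox). On the log2 scale PCNA differed by -0.51 (SE 0.187, adjusted p = 0.135). PCNA has processed copies elsewhere in the genome, and PCNAP1, PCNAP3 and PCNAP4 have no rows in the matrix.

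The call depended on single libraries. Without NAA40-KD (-dox) replicate 4, 10 of 10 members were called lower, where 19.4% of the 13751 genes tested were called lower and 36.5% in either direction, and the median over the members was -0.81. Without it, POLD1 had a log2 difference of -0.83 (adjusted p = 8.20e-06), POLE of -0.83 (adjusted p = 4.63e-06) and POLD2 of -0.35 (adjusted p = 0.00518). PRIM1 (-0.80, adjusted p = 0.000544), PRIM2 (-0.65, adjusted p = 0.00214) and PCNA (-0.49, adjusted p = 0.0235) passed as well, and the groups of all 10 members then did not overlap, against 20.6% of genes. Of the members called with all libraries, POLA1 went from -1.47 to -1.27, POLD3 from -0.91 to -0.77 and POLE2 from -1.29 to -1.04. These moved nearer to 0, while POLA2 went from -1.39 to -1.45. Leaving out another library lowered the count, to 1 member without SCR (-dox) replicate 1, 3 or 4, to 2 without SCR (-dox) replicate 2 or NAA40-KD (-dox) replicate 2 or 3, and to 3 without NAA40-KD (-dox) replicate 1. The share of all genes called also fell in these 7 fits, to between 1.64% and 3.18%. POLA1 passed in 5 of these 8 fits (adjusted p 9.82e-06 to 0.0609), losing its call without SCR (-dox) replicate 1, 3 or 4, POLD3 in 2 (6.53e-05 to 0.0843) and POLE2 in 1 (4.03e-05 to 0.122).

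**Figure D2:**
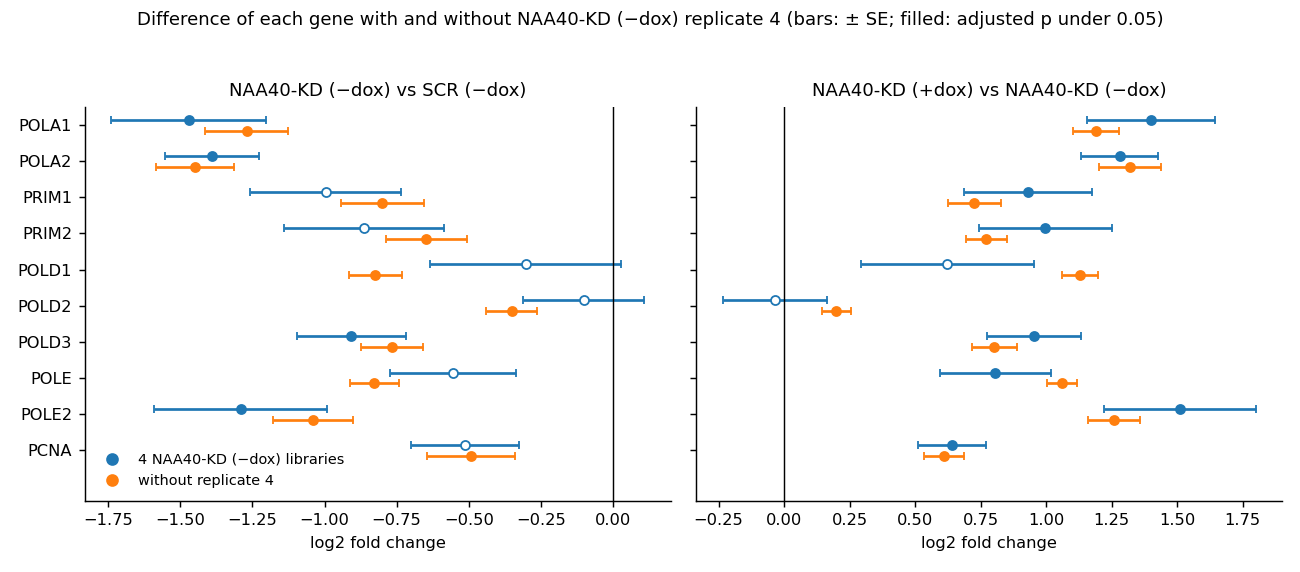
Log2 fold change of each member in the comparisons of NAA40-KD (-dox) with SCR (-dox), left, and with NAA40-KD (+dox), right, fitted with and without NAA40-KD (-dox) replicate 4, with bars of 1 standard error and filled points where the adjusted p was under 0.05. Without the library the bars are shorter, POLD1, POLD2 and POLE lie further from 0, and the points of all 10 members are filled in both panels. In the left panel POLA1, PRIM1, PRIM2, POLD3 and POLE2 lie nearer to 0 without it.

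In replicate 4 the members split by the GC content of their longest annotated transcript, coding or not. The level of replicate 4 minus the mean of replicates 1 to 3 was -1.04 log2 units for PRIM1 (40.7% GC), -1.20 for PRIM2 (41.6%), -1.09 for POLA1 (42.9%), -0.70 for POLD3 (43.0%) and -1.39 for POLE2 (43.7%). It was 0.83 for POLE (55.6%), 0.77 for POLD2 (59.1%) and 1.40 for POLD1 (65.0%), while PCNA (45.3%, -0.11) and POLA2 (54.5%, 0.17) lay near 0. Over all genes the same difference had a median of -0.90 for the 5213 genes under 45% GC and 0.94 for the 4405 genes at 55% or more. In replicates 1 to 3 every member lay below the SCR (-dox) mean, from -0.35 for POLD2 to -1.38 for POLA2. The part of GC content in the result was not tested beyond this, apart from a fit with a GC offset for each library, which called 10 of 10 members lower, where 18.3% of genes were called lower and 36% in either direction.

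**Figure D3:**
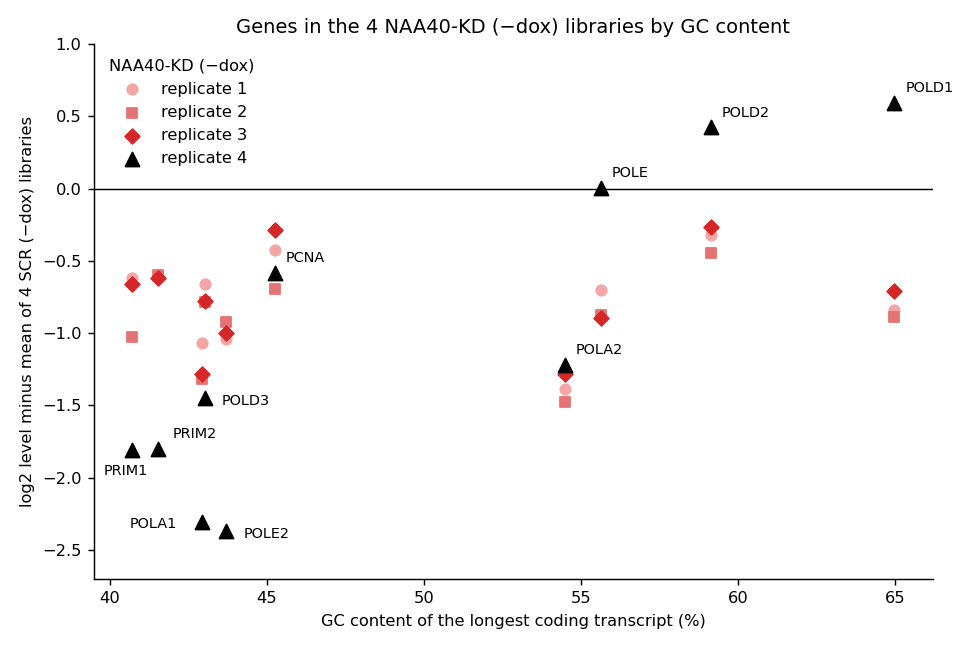
Log2 level of each member in the 4 NAA40-KD (-dox) libraries minus its mean in SCR (-dox), against the GC content of its longest annotated transcript (percent), with a marker per replicate. The axis label names this transcript as coding, but it was taken from all types. Replicate 4 lies below the other 3 for the 5 members of lowest GC content and above them for POLA2, by a small margin, and for POLE, POLD2 and POLD1, while replicates 1 to 3 lie below 0 for every member.

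The second comparison set the lines side by side in the libraries labelled (+dox), where NAA40 RNA was not low. PRIM2, POLD1, POLE and POLE2 rose in the libraries labelled NAA40-KD (+dox) by between 1.26-fold and 1.33-fold. That is 4 of 10 members, where 10.9% of 13869 genes were called higher and 24.5% in either direction, and 0 members passed an absolute log2 difference of 1 as well, against 2.15% of genes. The median over the members was 0.14, against 0.00 over all genes. In 3 members, PRIM2, POLD1 and POLE2, the groups did not overlap, where 12.8% of genes were higher without overlap.

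POLD1 was at 50.9, 55.4, 58.3 and 60.9 CPM in SCR (+dox) and at 70.8, 69.5, 70.0 and 75.5 CPM in the libraries labelled NAA40-KD (+dox). The groups were well apart. Its log2 difference was 0.34 (SE 0.088, adjusted p = 0.00897). POLE2 was at 15.6, 15.02, 18.5 and 13.9 CPM against 21.3, 21.2, 20.2 and 21.3 CPM. The libraries labelled NAA40-KD (+dox) were nearly equal and lay above the control range. The log2 difference was 0.41 (SE 0.110, adjusted p = 0.0107). For PRIM2 the levels were 28.0, 26.7, 29.9 and 27.1 CPM against 34.1, 34.7, 37.7 and 34.7 CPM, again without overlap. Its log2 difference was 0.34 (SE 0.093, adjusted p = 0.0136).

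POLE was at 126, 164, 126 and 188 CPM in SCR (+dox) and at 190, 187, 201 and 200 CPM in the libraries labelled NAA40-KD (+dox). The SCR (+dox) libraries spread widely, and their replicate 4 reached into the other group. The log2 difference was 0.36 (SE 0.113, adjusted p = 0.0255). The other 6 members did not pass, with log2 differences of 0.17 for PCNA (adjusted p = 0.312), 0.11 for POLA1 (0.477), 0.09 for POLD3 (0.548), 0.07 for PRIM1 (0.682), 0.01 for POLA2 (0.960) and -0.17 for POLD2 (0.173). Leaving out NAA40-KD (+dox) replicate 3 left 2 members called, POLD1 and POLE2, and 17% of genes. In a fit over all 16 libraries, which takes its spread from all 4 groups, 0 of 10 members were called, with 0 at an unadjusted p under 0.05 and 6.71% of genes called. POLD1 and POLE2 passed in 8 of 8 fits with a library left out (adjusted p 0.00428 to 0.0385 and 0.00218 to 0.0341). POLE lost its call without SCR (+dox) replicate 1 or 3 or NAA40-KD (+dox) replicate 3 or 4 (adjusted p up to 0.0746), PRIM2 without NAA40-KD (+dox) replicate 3 (0.0597), and PCNA passed without SCR (+dox) replicate 3 (0.00977).

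The third comparison was made within the NAA40-KD line, between the group labelled (+dox), where NAA40 RNA was at the control level, and the group labelled (-dox). It shares the NAA40-KD (-dox) libraries with the first comparison and the NAA40-KD (+dox) libraries with the second. The values are therefore not independent of those above. Here 8 of 10 members were higher in NAA40-KD (+dox), all but POLD1 and POLD2, where 4.71% of 13844 genes were called higher and 10.2% in either direction, and 3 of the 8 also passed an absolute log2 difference of 1, as 3.99% of genes did. The median log2 difference over the members was 0.94. The 8 called members also did not overlap between the groups, as in 15.1% of genes.

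POLA1 was at 31.8, 32.4, 32.3 and 30.8 CPM in the libraries labelled NAA40-KD (+dox), a spread of 0.755 (SD) around 31.8, against 12.0 ± 4.00 (SD, n = 4) in NAA40-KD (-dox). The log2 difference was 1.40 (SE 0.243, adjusted p = 0.0103). POLA2 was at 18.1, 16.2, 20.2 and 21.5 CPM, against 7.82 ± 0.659 in NAA40-KD (-dox). Every (+dox) library was well above the (-dox) ones. Its log2 difference was 1.28 (SE 0.147, adjusted p = 0.00240). PRIM1, at 23.8, 23.6, 25.1 and 26.8 CPM against 13.0 ± 4.43, had a log2 difference of 0.93 (SE 0.244, adjusted p = 0.0437). PRIM2 rose from 17.7 ± 5.96 to 35.3 ± 1.64 CPM, a log2 difference of 0.997 (SE 0.253, adjusted p = 0.0392).

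POLD3 was at 28.4, 30.1, 27.2 and 28.8 CPM in NAA40-KD (+dox), against 14.8 ± 3.34 (SD, n = 4) in NAA40-KD (-dox), a log2 difference of 0.95 (SE 0.179, adjusted p = 0.0133). In the fit with all libraries POLE2 showed the largest rise, from 7.33 ± 2.88 to 21.0 ± 0.542 CPM, a log2 difference of 1.51 (SE 0.290, adjusted p = 0.0145). Without NAA40-KD (-dox) replicate 4, the mean of POLE2 in that group was 8.76 CPM. With a library left out, the log2 difference ran from 1.26 to 1.63 for POLE2, 1.19 to 1.54 for POLA1 and 1.22 to 1.35 for POLA2. Their order is therefore not settled. POLE rose by 0.81 (SE 0.211, adjusted p = 0.0434) and PCNA, at 183, 183, 195 and 203 CPM against 123 ± 15.4, by 0.64 (SE 0.130, adjusted p = 0.0168). POLD1 differed by 0.62 (SE 0.330, adjusted p = 0.253). POLD2, at 129, 125, 135 and 136 CPM, differed by -0.04 (SE 0.198, adjusted p = 0.927).

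Replicate 4 of NAA40-KD (-dox) weighed here too. Without it all 10 members were called higher, where 25.8% of genes were and 52.4% passed in either direction, with log2 differences of 1.13 for POLD1 (adjusted p = 2.38e-12), 1.06 for POLE and 0.20 for POLD2 (adjusted p = 0.00396), and all 10 then did not overlap, as in 24.9% of genes. Leaving out 1 of the other libraries gave 2 members without NAA40-KD (+dox) replicate 2, 3 or 4, 3 without its replicate 1, 4 without NAA40-KD (-dox) replicate 2, and 5 without its replicate 1 or 3. Between 2.77% and 6.66% of all genes were called in these 7 fits. POLA1 and POLA2 passed in each of the 8 fits (adjusted p up to 0.0452 and 0.0189).

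The fourth comparison set the control line labelled (+dox) against the same line labelled (-dox). In SCR, 0 of 10 members and 0 of 13882 genes were called (0% of genes) by edgeR, and DESeq2 and limma-voom also called 0 members and 0 genes. At an unadjusted p under 0.05 stood 0 members and 271 genes. The log2 differences of the members ran from -0.21 to 0.02, with a median of -0.13, and the groups overlapped for each of them, while 0.82% of genes were lower without overlap and 0.785% higher. As an example, POLA1 was at 32.8, 30.4, 25.3 and 29.8 CPM in SCR (+dox), inside the range of SCR (-dox) apart from 1 library. POLD2 was at 136, 131, 166 and 158 CPM, and PCNA, at 166, 134, 224 and 155 CPM, varied between libraries as widely as in SCR (-dox).

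**Figure D4:**
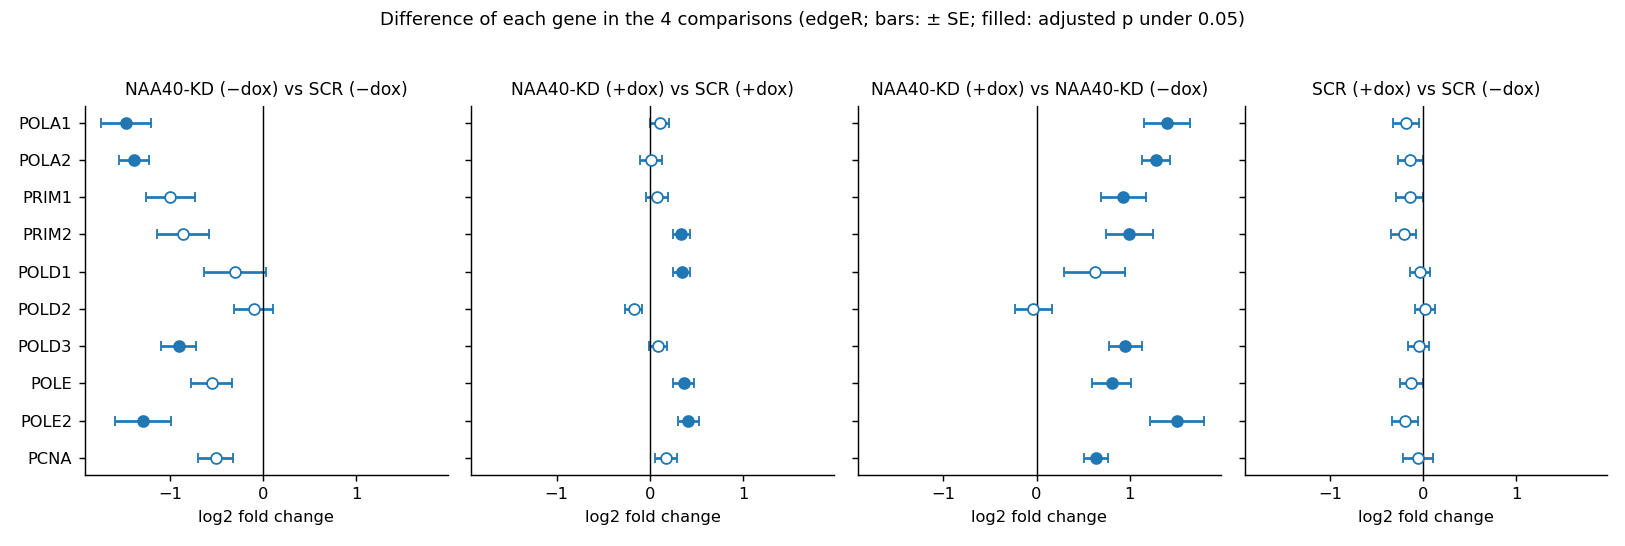
Log2 difference of each member in the 4 pairwise comparisons, with bars of 1 standard error and filled points where the adjusted p of the edgeR test was under 0.05. The members lie below 0 for NAA40-KD (-dox) against SCR (-dox), above 0 for NAA40-KD (+dox) against NAA40-KD (-dox) except POLD2, and near 0 within SCR.

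Whether the dox difference was unlike in the 2 lines was tested as the interaction over all 16 libraries, (NAA40-KD (+dox) minus NAA40-KD (-dox)) minus (SCR (+dox) minus SCR (-dox)), which reuses the libraries of the pairwise comparisons. A positive value passed the test for 7 of 10 members, where 4.31% of 14392 genes were called in that direction and 9.22% in either. The largest was POLE2, at 1.70 (SE 0.320, adjusted p = 0.00372), then POLA1 at 1.58 (SE 0.286, adjusted p = 0.00284) and POLA2 at 1.41 (SE 0.193, adjusted p = 0.000332). With a library left out, the ranges overlapped, at 1.45 to 1.83 for POLE2, 1.37 to 1.73 for POLA1 and 1.32 to 1.48 for POLA2. PRIM2 had 1.20 (adjusted p = 0.0176), PRIM1 1.07 (0.0294), POLD3 0.999 (0.00574) and POLE 0.93 (0.0281). PCNA at 0.69 (SE 0.236, adjusted p = 0.0761), POLD1 at 0.66 (SE 0.346, adjusted p = 0.246) and POLD2 at -0.06 (SE 0.224, adjusted p = 0.902) did not pass. Without NAA40-KD (-dox) replicate 4, 9 of 10 members passed, where 11.9% of genes were called in that direction and 24.2% in either, and POLD2 had 0.17 (adjusted p = 0.344). With 1 of the other 15 libraries left out, between 5 and 7 passed, where 5.71% to 9.45% of genes were called, and POLA1, POLA2, PRIM2, POLD3 and POLE2 were among them each time.

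Partners in 1 enzyme were also set against each other, since a ratio of 2 genes within a library needs no scaling. The log2 ratios POLA1/POLA2, PRIM1/PRIM2, POLD1/POLD2, POLD1/POLD3 and POLE/POLE2 gave 20 tests over the 4 comparisons, and none passed after Benjamini-Hochberg adjustment. POLD1/POLD2 came nearest. It was -1.42, -1.24, -1.51 and -1.37 in SCR (+dox) and -0.86, -0.85, -0.94 and -0.85 in NAA40-KD (+dox). The catalytic subunit thus stood higher against its partner in each NAA40-KD (+dox) library than in any SCR (+dox) library, by 0.51 in the mean (exact permutation test, p = 0.0286, adjusted 0.286). Against NAA40-KD (-dox), where the ratio was -1.86, -1.78, -1.78 and -1.16, the difference was 0.77 with the same p. An exact p of 0.0286 is the smallest that the 70 arrangements of 4 against 4 libraries allow, so with 20 tests no single ratio could reach an adjusted p under 0.05. Without NAA40-KD (-dox) replicate 4, POLD1/POLD2 was lower in NAA40-KD (-dox) than in SCR (-dox) by 0.47 (exact p = 0.0286, adjusted over 10 tests 0.0952), an alternative chosen after seeing the data.

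The mean of the members was lowest in the libraries labelled NAA40-KD (-dox). Centred on SCR (-dox), it was -0.77, -0.90, -0.78 and -1.05 log2 units in the libraries labelled NAA40-KD (-dox), between -0.18 and -0.01 in SCR (+dox) and between 0.03 and 0.13 in NAA40-KD (+dox). The -1.05 is replicate 4, where the mean hides a wide spread, the members running from -2.37 to 0.592. In replicates 1 to 3 they ran from -1.39 to -0.322, -1.48 to -0.446 and -1.28 to -0.268. Among 11111 other genes with a mean of at least 5 CPM, those nearest to this profile over the 16 libraries were NCL, which encodes nucleolin, CTPS1, a CTP synthase, PSME3, a proteasome activator subunit, LMNB1, lamin B1, and DHX9, an RNA helicase. Their root mean square difference from the profile was 0.0774, 0.0777, 0.0968, 0.110 and 0.111 log2 units, smaller than that of any member, the members lying between 0.134 for POLD3 and 0.445 for POLD2. These 5 genes were picked for closeness among 11111, and the members were not, so the distances are not a like comparison.

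Other genes of DNA replication were counted by list, first for NAA40-KD (-dox) against SCR (-dox), where 3.54% of all genes were called lower. Of 16 genes of the replicative helicase and fork protection, 9 fell and 0 rose, with a median log2 difference of -1.07. GINS3, a subunit of the helicase, fell by 1.69 on the log2 scale (adjusted p = 0.00183), MCM10, which activates it, by 1.57 (adjusted p = 0.00266) and MCM4, one of its motor subunits, by 1.41 (adjusted p = 0.00373). Of 9 genes for loading and unloading PCNA, 4 fell, among them RFC5 (-1.19, adjusted p = 0.0112), DSCC1 (-1.24, adjusted p = 0.0227) and RFC2 (-0.83, adjusted p = 0.0250). Of 6 genes that finish lagging strands, FEN1, the flap endonuclease, was the one that fell (-1.24, adjusted p = 0.00638). Of 15 partners and modifiers of PCNA, 3 fell, DTL (-1.65, adjusted p = 0.00638), CHAF1B (-1.11, adjusted p = 0.00663) and CHAF1A (-1.04, adjusted p = 0.0205), the first acting in PCNA-dependent protein destruction and the others being chromatin assembly factor subunits.

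By contrast, 0 of 3 small subunits of the same polymerases passed, with POLE3 at -0.42 (adjusted p = 0.199), POLE4 at 0.21 (0.615) and POLD4 at 0.24 (0.736). POLE4 and POLD4 had low counts, with means of 4.46 and 3.91 CPM in SCR (-dox). The lowest mean of a member there was 18.0 CPM, for POLE2. Also 0 of 3 genes of the single-strand binding complex RPA passed (RPA1 -0.34, adjusted p = 0.185), 0 of 11 translesion and other nuclear polymerases (POLQ -0.85, 0.0586; POLH 0.49, 0.0637) and 0 of 5 genes of mitochondrial DNA replication (POLRMT 0.86, 0.185). Whether these lists differ from the members was not tested. Of 12 genes of mitosis, 3 fell, MKI67 (-1.03, adjusted p = 0.00638), AURKA (-0.93, 0.0172) and CCNB1 (-0.81, 0.0227), and of 7 epithelial markers 1 rose, CLDN4 (1.37, adjusted p = 0.0261), where 2.88% of all genes were called higher. These 3 of 12 mitosis genes were thus lower in the same libraries as the members, and the part of cell cycle phase in the result was not tested.

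Without NAA40-KD (-dox) replicate 4, where 19.4% of genes were called lower, the counts of genes that fell went to 16 of 16 for the helicase, 8 of 9 for the clamp loaders, 5 of 6 for lagging-strand genes, 9 of 15 for PCNA partners, with 2 higher, and 11 of 12 for mitosis. They were 1 of 3 for the small polymerase subunits (POLE3), 1 of 3 for RPA, 2 of 11 for translesion and other polymerases, with 2 higher, and 1 of 5 for mitochondrial replication, with 1 higher, while 4 of 7 epithelial markers rose and 0 fell, where 17.1% of genes were called higher. In NAA40-KD (+dox) against NAA40-KD (-dox), where 4.71% of genes were called higher and 5.5% lower, 13 of 16 helicase genes rose, 5 of 9 clamp loaders, 2 of 6 lagging-strand genes, 4 of 15 PCNA partners, with 1 lower, 3 of 12 mitosis genes and POLE3 of the small subunits, while 0 of the RPA, translesion and mitochondrial genes passed and 3 of 7 epithelial markers fell. Without NAA40-KD (-dox) replicate 4, 25.8% of genes were called higher and 26.6% lower. In that fit 15 of 16 helicase genes rose and 1 fell, and 9 of 9 clamp loaders and 5 of 6 lagging-strand genes rose. Of 15 PCNA partners 8 rose and 4 fell, and 11 of 12 mitosis genes rose. For RPA 2 of 3 rose, for translesion 2 of 11 rose and 5 fell, and for mitochondrial genes 2 of 5 rose and 1 fell. Of the small subunits 1 of 3 rose, and of 7 epithelial markers 1 rose and 6 fell. In NAA40-KD (+dox) against SCR (+dox), where 10.9% of genes were called higher and 13.7% lower, 5 of 16 helicase genes rose and 1 fell, 5 of 15 PCNA partners rose and 2 fell, 2 genes each of the lagging-strand, translesion and mitochondrial lists rose, 1 clamp loader gene rose and 1 fell, 0 of the small subunits and of RPA passed, and 4 of 12 mitosis genes and 1 of 7 epithelial markers fell. Counts near the shares over all genes in that comparison include the clamp loaders (1 of 9 in each direction) and the translesion list (2 of 11). They also include the falls of PCNA partners (2 of 15) and of epithelial markers (1 of 7). In NAA40-KD (-dox) against SCR (-dox) without replicate 4, the translesion and mitochondrial counts likewise lie near those shares. In SCR (+dox) against SCR (-dox), 0 genes of any list passed. The interaction, positive for 4.31% of genes and negative for 4.91%, was positive past the test for 13 of 16 helicase genes, 5 of 9 clamp loaders, 2 of 6 lagging-strand genes, 4 of 15 PCNA partners, with 1 negative, 1 of 11 translesion polymerases and 3 of 12 mitosis genes, and negative for 3 of 7 epithelial markers. Without NAA40-KD (-dox) replicate 4, it was positive past the test for 11.9% of genes and negative for 12.3%. It then passed as positive for 15 of 16 helicase genes, 9 of 9 clamp loaders, 4 of 6 lagging-strand genes and 7 of 12 mitosis genes. Of 15 PCNA partners 7 were positive and 3 negative, and of 11 translesion polymerases 1 and 3. Also positive were 1 of 3 small subunits and 1 of 5 mitochondrial genes. For RPA it was 0 of 3, and 6 of 7 epithelial markers were negative.

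**Figure D5:**
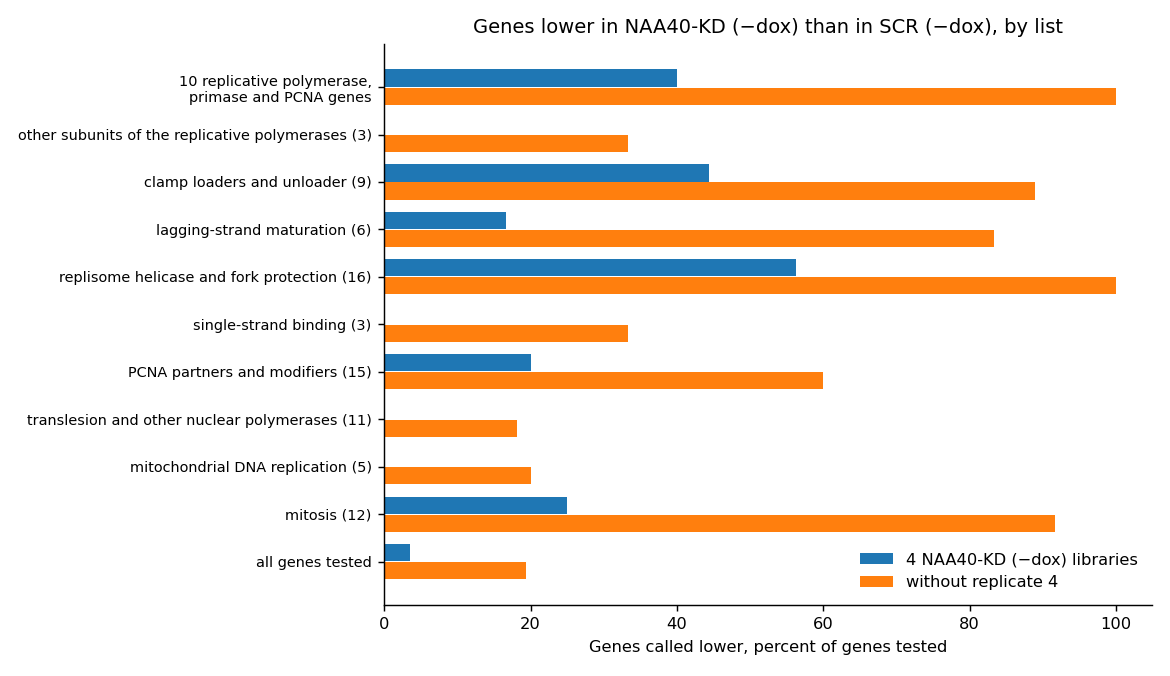
Share of each gene list (percent of its genes tested) called lower in NAA40-KD (-dox) against SCR (-dox), with all 8 libraries and without NAA40-KD (-dox) replicate 4, beside the share of all genes. Bars start at 0, and the members go from 4 of 10 to 10 of 10 and the helicase list from 9 of 16 to 16 of 16, while the share of all genes goes from 3.54% to 19.4%.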

How the data were processed

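RNA-seq of HCT116 cells was deposited as 1 matrix of raw read counts per Ensembl gene for 16 libraries, and 0 columns were left without a sample. The authors aligned reads with STAR and counted them with featureCounts, per the submitters' processing notes, which also name limma and the builds hg38 and GRCm38. Those notes give no versions, while the methods give one for STAR beside a mouse build. The strand setting of counting is not given in the sources used here, and the labels and the methods name different RNA kits. Counts of genes that overlap on opposite strands may therefore not be separable. Every identifier is human. Symbols, coordinates, exon lengths and GC content came from GENCODE 29 (GRCh38), and 33811 of 33937 rows received a symbol.

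Groups were taken from the labels. Counts were scaled by TMM in edgeR 4.0.16 (R 4.3.3), and genes with CPM above 1 in at least 4 libraries of a fit were tested by edgeR's quasi-likelihood F test with robust dispersion. Benjamini-Hochberg adjustment ran over all genes of the fit, a call was an adjusted p under 0.05, and the study's definition of differential expression adds an absolute log2 fold change above 1. Each pairwise comparison used its own 8 libraries, and the interaction used all 16. Ratios within a library (counts plus 0.5) were compared by exact permutation of 4 against 4 libraries. All 10 members passed the filter in every comparison. The text names every member, NAA40, up to 3 genes of each list with the lowest p in NAA40-KD (-dox) against SCR (-dox), the 5 genes nearest to the members' mean profile (root mean square over the 16 libraries, mean CPM of at least 5), and genes that overlap or duplicate a member. The members and lists were chosen with earlier results of these data known. The fits were tested on simulated data. Alternatives were DESeq2 1.42.0, limma-voom 3.58.1, other scalings and filters, a fit over all libraries, a replicate block, a GC offset, stricter thresholds, a prior count of 5 for ratios, and each library left out in turn. The methods describe 4 independent RNA samples per condition and speak, for the study's data in general, of independent experiments. Neither names separate cultures for these libraries, so the p-values measure the spread between these libraries, which may be technical. That spread was unequal. The SD over genes of a library's log2 deviation from its group mean was 0.170 to 0.178 in NAA40-KD (+dox). It was 0.191 to 0.267 in the SCR libraries.

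The depth of 11065606 to 13855486 counts per library left at least 37 counts for every member in every library. RefSeq promoter windows (GRCh38.p14) were matched by symbol, and where the table held several for a gene, the one nearest to the GENCODE start was used.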

Additional observations from a re-analysis of the deposited data

Results flagged for a closer look

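Each of the 10 members was checked in each of the 4 groups for a library far from the other 3, and 7 of these 40 sets held one, where chance alone flags about 1 in 20 groups. The members share their libraries, so the sets are not independent and the count cannot be judged against that rate. Of the 7, 5 were NAA40-KD (-dox) replicate 4. PRIM2 (8.71 CPM) and POLE2 (3.04 CPM) were lowest there, while POLD1 (87.02 CPM), POLD2 (194.3 CPM) and POLE (165 CPM) were highest there. The other 2 lay in NAA40-KD (+dox), where the rest of the group was tightly packed, PRIM2 being highest in replicate 3 at 37.73 CPM and POLE2 lowest in replicate 3 at 20.19 CPM. In replicate 4 the members of low GC content were low and those of high GC content high, and the part of this in the 5 values was not tested.

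The dox difference was unlike in the NAA40-KD and SCR lines for 7 members, by the interaction test over 16 libraries (edgeR quasi-likelihood, adjusted p under 0.05). The log2 interaction was 1.70 for POLE2, 1.58 for POLA1, 1.41 for POLA2, 1.20 for PRIM2, 1.07 for PRIM1, 0.999 for POLD3 and 0.933 for POLE. Each of these 7 also passed between the dox labels of the NAA40-KD line, and within SCR none passed. In replicates 1 to 3 the (-dox) libraries lay below the SCR (-dox) mean for each of them.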

How the results depend on the processing

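The number of members called in NAA40-KD (-dox) against SCR (-dox), 4 of 10 (6.42% of all genes), was 1 at an adjusted p under 0.01 (1.11% of all genes), 8 in the fit over all 16 libraries (20.5%) and 10 with a GC offset (36%), and ran from 1 to 10 with a library left out (1.64% to 36.5%). In NAA40-KD (+dox) against SCR (+dox), also 4 (24.5%), it was 1 at an adjusted p under 0.01 (12.7%), 0 with a log2 threshold of 1 (2.15%), 0 in the fit over all 16 libraries (6.71%), and 2 to 4 with a library left out (17% to 25.4%). In NAA40-KD (+dox) against NAA40-KD (-dox), 8 (10.2%), it was 1 at an adjusted p under 0.01 (2.39%), 3 with the log2 threshold (3.99%) and 2 to 10 with a library left out (2.77% to 52.4%). The interaction, 7 (9.22%), gave 4 at an adjusted p under 0.01 (3.23%) and 5 to 9 with a library left out (5.71% to 24.2%). DESeq2 called 6 (13.8%) and limma-voom 5 members (7.13%) in the first comparison, within 1.5 times of the 4 by edgeR. The causes of these shifts were not tested. Depth limits the lowest value, POLE2 in NAA40-KD (-dox) replicate 4, which rests on 37 counts.

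Replicate numbers are shared between groups, and the correlation of same-numbered libraries ran from -0.416 to 0.237. It was above 0.1 for all 4 numbers in no comparison, and for 3 of 4 in NAA40-KD (+dox) against NAA40-KD (-dox), so the numbers were not taken as pairs. The correlations use deviations from the group mean. Against the rest of their group, NAA40-KD (-dox) replicates 1 to 4 had GC slopes of -0.29, -0.32, -0.284 and 0.894 log2 units per 10 percentage points. In comparisons with that group, the correlations therefore cannot decide whether the numbers are pairs. With the number as a replicate block, 1, 4, 4, 0 and 7 members were called in the order of the report, against 4, 4, 8, 0 and 7 without it, so the block moved the first and the third count. The share of all genes called went from 6.42% to 0.59% in the first and from 10.2% to 5.61% in the third, where PRIM1, PRIM2, POLE and PCNA lost their calls (adjusted p 0.0518 to 0.072).

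Signs turned for the following values, some of them ratios as far from 0 as 0.475. For POLA2 in NAA40-KD (+dox) against SCR (+dox), upper-quartile scaling gave -0.00553, and leaving out a library -0.0632 to 0.0807. For POLD2 in NAA40-KD (+dox) against NAA40-KD (-dox), limma-voom gave 0.0105, library-size scaling 0.000806, no filter 0.00568, the replicate block 0.00869 and the GC offset 0.217 (adjusted p = 0.00832), and leaving out a library -0.139 to 0.199. The POLD2 interaction was 0.203 with the GC offset and -0.156 to 0.171 with a library left out, and POLD2 in NAA40-KD (-dox) against SCR (-dox) ran from -0.352 to 0.00175. In SCR, POLD1 ran from -0.0744 to 0.00798, POLD2 from -0.0338 to 0.0759, POLD3 from -0.0907 to 0.00257 and PCNA from -0.213 to 0.121. Of the ratios, POLA1/POLA2 ran from -0.309 to 0.188, -0.0178 to 0.196, -0.122 to 0.374 and -0.13 to 0.0833 in the order of the report, POLD1/POLD3 from -0.061 to 0.691 (NAA40-KD (-dox) against SCR (-dox)), -0.425 to 0.327 (NAA40-KD (+dox) against NAA40-KD (-dox)) and -0.0498 to 0.0593 (SCR), POLE/POLE2 from -0.197 to 0.134 (NAA40-KD (+dox) against SCR (+dox)) and -0.125 to 0.206 (SCR), and PRIM1/PRIM2 from -0.00519 to 0.0938 (SCR). None of these SCR values or ratios passed a test.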
